A study of Mus musculus with 12 samples.

Results

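A group of 8 axon regeneration-associated genes was followed in mouse dorsal root ganglia: Gap43, Sprr1a, Sox11, Gadd45a, Ecel1, Stmn2, Stmn4 and Flrt3. They were chosen by gene name, and all 8 were found among the 54532 genes of the deposited table and among the 17002 genes tested. The ganglia came from C57BL/6 mice, and all mice received D-alanine. The 6 DAAO libraries carry the genotype label DAAO-TGCdh5 and the 6 control libraries the label CDH5-Cre. D-amino acid oxidase (DAAO) uses D-alanine as a substrate and makes hydrogen peroxide in the reaction, and the promoter of Cdh5, vascular endothelial cadherin, is active in endothelial cells. Cre stands in the sample names of both groups but not in the genotype label of the DAAO mice. No label gives an age.

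Sensory neurons whose axon is cut or crushed switch on a programme of genes that lets the peripheral axon grow back. Transcription factors such as Atf3, Jun and Sox11 act early in it, and growth cone, cytoskeletal and surface proteins carry out the growth. Gap43, Sprr1a, Gadd45a, Stmn2 and Ecel1 are among the genes that rise in the ganglion in that state. In whole ganglia, fewer cells of a type and less RNA per cell cannot be told apart.

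Each library held from 13227518 to 23884927 counts. Levels are in CPM, each library's total being scaled with its TMM factor. Differences are log2 fold changes, DAAO minus control, tested with the quasi-likelihood test of edgeR, and a gene was called where its Benjamini-Hochberg adjusted p was under 0.05. All 15 pan-neuronal markers passed the filter on low counts, and the least abundant by mean level, Isl1, averaged 83.8 CPM in DAAO and 105 CPM in control. In 5 libraries, 3 DAAO and 2 control, Xist and the Y-linked genes together were each above 10 CPM, as in a mix of male and female tissue, so n is the number of libraries. In DAAO 4, DAAO 5 and control 4, Xist was at most 0.702 CPM and the Y-linked Ddx3y from 58.2 to 61.5 CPM. In DAAO 3 and controls 3, 5 and 6, Ddx3y was at most 1.3 CPM and Xist from 216 to 277 CPM. The groups were thus not matched in sex content, whose part in the members' values was not tested. Control 2 stood apart in tissue content. Its summed level of 9 myelinating Schwann cell markers was 22445 CPM, the highest of all libraries, where DAAO libraries ranged from 6518 to 7652 CPM. The share of mitochondrial transcripts was highest in controls 2 and 6, at 7.45% and 7.65%. Of the neuron subtype markers, 4 of 7 for proprioceptors fell (from 2 to 4 with 1 library left out) and 2 of 5 for A-fibre low-threshold mechanoreceptors fell (from 0 to 2). None of 5 peptidergic nociceptor, 7 non-peptidergic nociceptor and 4 C-fibre low-threshold mechanoreceptor markers was called. Over all genes tested 0.753% were called. The part of these subtype differences in the members' values was not tested.

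None of the 8 genes changed at the threshold. Of all genes tested, 128 were called, or 0.753%, so a count of 0 of 8 does not set the group apart. At an unadjusted p under 0.05, 1 of the 8 passed, against 10.3% of all genes tested. That gene was Gadd45a, which stood 1.89-fold higher in DAAO ganglia and missed the threshold (edgeR, adjusted p = 0.0669). DESeq2 called 1 member, Gadd45a, and limma-voom also called 1, the same gene. The log2 fold changes were positive in 4 members and negative in 4, with a median of -0.0017 beside 0.0021 over all genes tested. In none of the 8 did the CPM of the groups separate fully, which 1.45% of all genes did. The plot of levels by library shows this overlap in each gene.

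**Figure D1:**
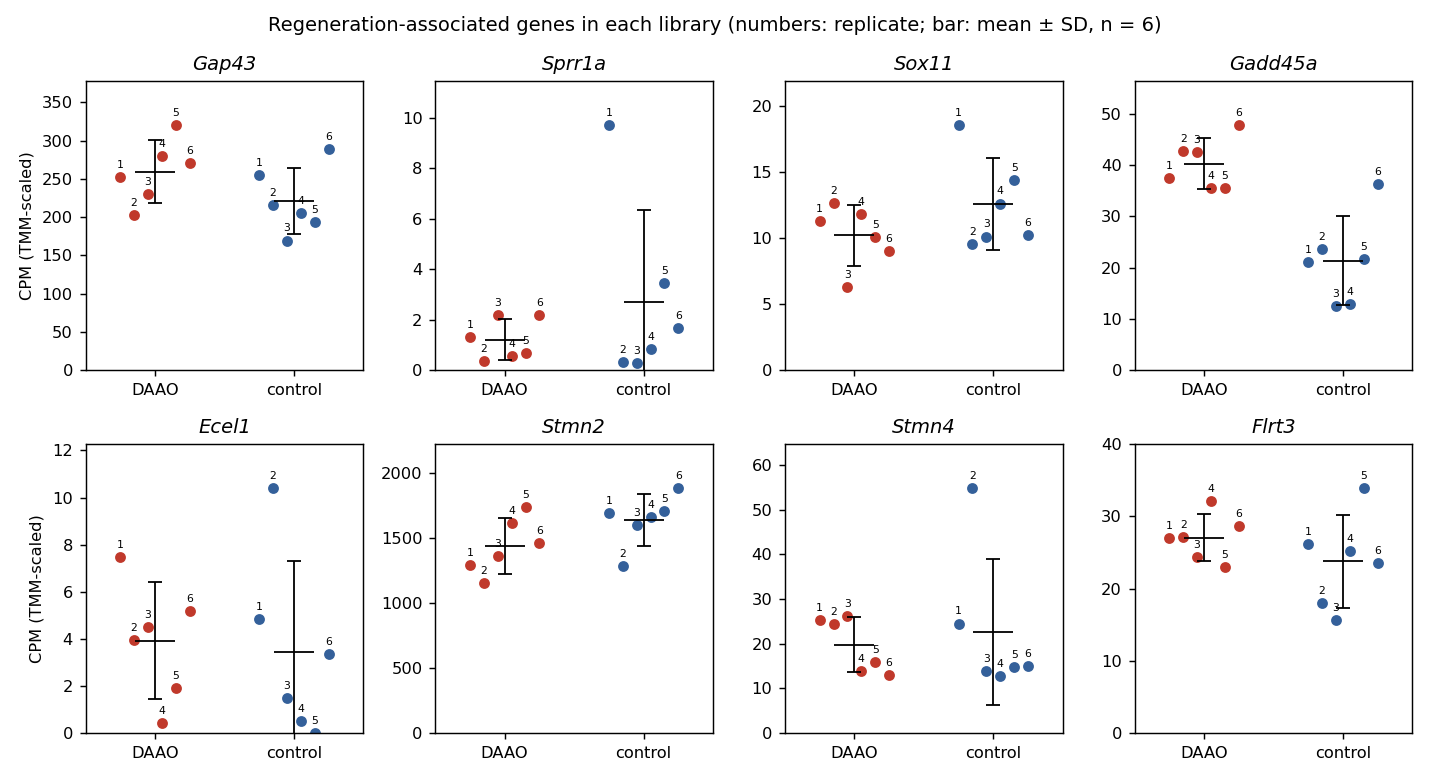
CPM (TMM-scaled, linear axes from 0) of the 8 genes in each DAAO library (left, red) and control library (right, blue); numbers are replicates, and black bars are mean ± SD, n = 6 per group, cut off at 0 where the SD exceeds the mean. Gadd45a has its 6 DAAO libraries at or above 35.5 CPM and 5 control libraries below 24 CPM, with control 6 among the DAAO values.

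The members differed widely in abundance. Per kilobase of gene length, Stmn2 stood at 256 ± 38.3 in DAAO and 292 ± 35.3 in control ganglia (mean CPM per kilobase ± SD, n = 6 per group). Gap43 followed with 170 ± 26.8 in DAAO and 145 ± 28.5 in control. Gadd45a came next with 22.8 ± 2.79 in DAAO and 12.1 ± 4.93 in control, then Stmn4 with 10.3 ± 3.23 in DAAO and 11.8 ± 8.54 in control. These level differences place the stathmin Stmn2 and Gap43 far above the other members. Flrt3 stood at 5.56 ± 0.665 in DAAO and 4.88 ± 1.33 in control, and Sprr1a at 1.51 ± 1.02 in DAAO and 3.37 ± 4.49 in control. Sox11 stood at 1.23 ± 0.278 in DAAO and 1.51 ± 0.416 in control, and Ecel1 at 1.12 ± 0.710 in DAAO and 0.982 ± 1.10 in control. The mean ± SD ranges of Sprr1a, Sox11 and Ecel1 overlapped in both groups. In control ganglia those of Gadd45a and Stmn4, of Stmn4 and Flrt3, and of Flrt3 and Sprr1a overlapped too.

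Gadd45a encodes a small stress-response protein that is induced by DNA damage and by growth arrest, and its transcript accumulates in sensory neurons after nerve injury. The gene (ENSMUSG00000036390) lies on the minus strand of chromosome 6, 67035096 to 67037457, build GRCm38. In DAAO libraries its lowest, median and highest levels were 35.5, 40.0 and 47.8 CPM, against 12.6, 21.5 and 36.3 CPM in control libraries. All 6 DAAO libraries lay above the control median. The groups overlapped through 1 library, since control 6, at 36.3 CPM, lay above DAAO 4 and DAAO 5, both at 35.5 CPM. The next highest control was control 2 at 23.7 CPM. The mean was 40.3 ± 4.93 CPM in DAAO and 21.4 ± 8.70 CPM in control (SD, n = 6 per group). The log2 fold change was 0.92 ± 0.22 (SE), with a 95% interval of 1.38-fold to 2.59-fold, and Gadd45a ranked 145th of the 17002 genes by p. The adjusted p of 0.0669 by edgeR became 0.00682 without control 6, where the log2 fold change was 1.13, and 0.0423 without control 2. It ranged from 0.0722 to 0.171 without any other single library. The direction was the same in all 25 alternatives, with a fold from 1.74 to 2.73, and 9 of them called the gene. Among these, the replicate number as a block gave an adjusted p of 0.0244. Gadd45a overlaps the non-coding E230016M11Rik on the other strand, which held 818 counts in all libraries together and had a log2 fold change of 0.23 (adjusted p = 0.904). No source used here says whether the counting used strand, so reads of this pair cannot be told apart.

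The related genes of the family were read beside it. Gadd45b stood at 15.3 ± 1.56 CPM in DAAO and 9.61 ± 4.04 CPM in control (log2 fold change 0.68, edgeR adjusted p = 0.271). Gadd45g stood at 18.7 ± 3.15 CPM in DAAO and 19.6 ± 6.04 CPM in control (-0.06, adjusted p = 0.965). Neither passed, and the difference between the family members was not tested. Without control 2, Gadd45b passed with Gadd45a (0.92, adjusted p = 0.0240). Gadd45a is a target of the tumour suppressor p53 as well as of injury signals. None of 12 listed p53 and DNA damage targets was called, with a median log2 fold change of 0.07. The smallest p among them were those of Plk2, a kinase (0.43, adjusted p = 0.262), Eda2r, a receptor (1.27, adjusted p = 0.620), and Cdkn1a, the cell cycle inhibitor p21 (-0.29, adjusted p = 0.641). At an unadjusted p under 0.05 the edgeR test passed only Plk2 of this list, and DESeq2 called none. Without controls 2 and 6, Bbc3, a pro-apoptotic BCL2 family protein, passed as higher (1.17, adjusted p = 0.0250).

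Promoter sequence was examined for the binding motif of AP-1, the factor family to which Jun and Fos belong, because Atf3 and Jun rose in these ganglia (their values follow). Promoters of 5 members, Sprr1a, Sox11, Gadd45a, Ecel1 and Flrt3, were matched in RefSeq's table of build GRCm38.p6. The 250 bases before RefSeq's start site were searched for TGANTCA (AP-1) and TGAC joined to GTCA (CRE, the motif of the ATF and CREB family); each reads the same on both strands. The AP-1 motif was found in 6.75% of all 32851 promoters of that length and the CRE in 1.55%. Sprr1a was the 1 member of these 5 with a match to either motif. Its promoter held the AP-1 motif at 2 places, starting 146 and 116 bases before RefSeq's start site. That start lies inside the gene as the deposited table places it, by 14 bases in Sprr1a, 50 in Gadd45a and 165 in Ecel1, and such bases are left out of the stretches printed. The promoters of Sprr1a (minus strand, chr3:92485896-92486131) and Gadd45a (minus strand, chr6:67037458-67037657) are shown 5′ to 3′ as the member with the motif and the member nearest the threshold. Capitals mark the AP-1 motif.
Sprr1a: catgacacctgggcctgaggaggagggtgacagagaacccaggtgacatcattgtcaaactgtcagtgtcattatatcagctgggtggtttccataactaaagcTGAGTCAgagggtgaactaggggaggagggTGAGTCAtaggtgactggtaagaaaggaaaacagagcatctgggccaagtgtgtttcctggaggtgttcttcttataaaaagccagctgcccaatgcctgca
Gadd45a: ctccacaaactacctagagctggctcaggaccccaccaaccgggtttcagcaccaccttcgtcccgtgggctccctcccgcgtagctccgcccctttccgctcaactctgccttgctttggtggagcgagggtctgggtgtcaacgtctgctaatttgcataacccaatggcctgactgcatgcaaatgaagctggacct
A match describes these letters and is no measure of binding. Only 5 members, and 250 bases of each, were searched. A relation of the motif to the members' values was not tested.

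Sprr1a encodes a small proline-rich protein of the cornified envelope of skin that injured sensory neurons also make in large amounts. The gene (ENSMUSG00000050359) lies on the minus strand of chromosome 3, 92483952 to 92485895. It was scarce, with from 7 to 39 counts per DAAO library and from 6 to 175 counts per control library. Its lowest, median and highest levels were 0.359, 1.0 and 2.19 CPM in DAAO libraries, against 0.300, 1.26 and 9.70 CPM in control libraries. Control 1 alone held 9.70 CPM, and the highest of the other controls, control 5, held 3.44 CPM. The log2 fold change was -1.16 ± 0.77 (SE; edgeR adjusted p = 0.668), with an interval from 0.144-fold to 1.39-fold. Without control 1 it was -0.11 (adjusted p = 0.984), so the size of the difference rested on that library. Of 6 keratinocyte markers, 4 were abundant enough to test and none passed by edgeR or DESeq2, nor at an unadjusted p under 0.05. Their levels ranged up to that of Krt10, a keratin, at 3.82 ± 1.14 CPM in DAAO and 3.57 ± 0.750 CPM in control. The basal keratins Krt5 and Krt14 were too scarce to test. Krt5 had 0 counts in DAAO and 17 counts in control libraries together, and Krt14 had 12 counts in DAAO and 38 counts in control libraries. All the Krt5 counts lay in control 3, which was also the highest library in Krt14 (1.25 CPM). In control 1, where Sprr1a was highest, Krt5 and Krt14 were both at 0. The same held in DAAO 3, DAAO 5, DAAO 6, control 5 and control 6, so these 2 genes do not set control 1 apart. Of 9 listed small proline-rich and cornified envelope genes in the table, Sprr1a and Lor, which encodes loricrin, were abundant enough to test. Lor did not pass (-0.53, adjusted p = 0.869).

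Sox11 encodes a high-mobility-group transcription factor that promotes axon growth in injured sensory neurons. The gene (ENSMUSG00000063632) lies on chromosome 12, 27334264 to 27342574. Sox11 ranged over lowest, median and highest levels of 6.28, 10.7 and 12.7 CPM in DAAO libraries, against 9.55, 11.4 and 18.6 CPM in control libraries. The groups overlapped between 9.55 and 12.7 CPM, with control 1 the highest library and DAAO 3 the lowest. The log2 fold change was -0.30 ± 0.21 (SE; edgeR adjusted p = 0.700), with an interval from 0.592-fold to 1.11-fold. The other SoxC factors had positive values that did not pass. Sox4 stood at 16.4 ± 4.70 CPM in DAAO and 9.54 ± 3.44 CPM in control (0.77, adjusted p = 0.253). Sox12 stood at 21.99 ± 3.83 CPM in DAAO and 20.1 ± 5.35 CPM in control (0.12, adjusted p = 0.902).

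Gap43 encodes the growth-associated protein of the growth cone membrane, which sensory neurons of the adult make at rest and raise after injury, and which Schwann cells without myelin also make. The gene (ENSMUSG00000047261) lies on chromosome 16, 42248442 to 42340651. In DAAO libraries the lowest, median and highest levels were 203, 261 and 320 CPM, against 169, 211 and 289 CPM in control libraries. In DAAO, 5 of 6 libraries lay above the control median, and the groups overlapped, with control 6 above all but 1 DAAO library. Gap43 had a log2 fold change of 0.23 ± 0.14 (SE; edgeR adjusted p = 0.640). Its interval, from 0.949-fold to 1.45-fold, was among the narrowest of the 8 genes. Of 12 markers of repair and non-myelinating Schwann cells 3 rose, Btc (log2 fold change 4.54), Runx2 (1.67) and Sox2 (1.07), and 9 did not pass. Among these Gdnf had the value 2.71 and Shh, Scn7a and Ncam1 negative values (-0.51, -0.18 and -0.11). Sox2 did not pass without DAAO 3 or DAAO 6 (adjusted p = 0.0608 and 0.0519). Over all 12 markers the mean centred log2 level per library lay between 0.21 and 1.0 in DAAO and between -1.45 and 0.08 in control. The level includes Btc, Runx2 and Sox2, which were called between these same groups, so it is no separate evidence on these cells. The groups did not overlap in it, so the level and the genotype cannot be told apart. Of the genes related to Gap43, Basp1 (0.05, adjusted p = 0.964), Marcks (0.46, adjusted p = 0.322) and Marcksl1 (0.44, adjusted p = 0.628) bind the inner membrane face like Gap43. Nrgn, the postsynaptic calmodulin-binding neurogranin, had a log2 fold change of -0.66 (adjusted p = 0.776). None of these genes passed. Marcks passed without control 2 (0.64, adjusted p = 0.0172).

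Stathmins bind tubulin and destabilise microtubules, and Stmn2 (also called SCG10) is the neuronal form most used to mark regrowing sensory axons. Stmn2 (ENSMUSG00000027500; chromosome 3, 8509360 to 8561606, plus strand) was the most abundant member. Its lowest, median and highest levels were 1153, 1410 and 1736 CPM in DAAO libraries, against 1282, 1672 and 1883 CPM in control libraries. In DAAO, 5 of 6 libraries lay below the control median, but the ranges overlapped. Stmn2 had a log2 fold change of -0.19 ± 0.13 (SE; edgeR adjusted p = 0.705), with an interval from 0.721-fold to 1.07-fold. With the level of 15 pan-neuronal markers as a term the log2 fold change of Stmn2 was -0.10 (adjusted p = 0.763), that of Gap43 was 0.32 (adjusted p = 0.257) and that of Gadd45a was 0.93 (adjusted p = 0.0757). The summed level of those markers ranged from 9597 to 16320 CPM in DAAO and from 11968 to 18239 CPM in control. Of them 1 fell, Snap25, a vesicle fusion protein (-0.61, adjusted p = 0.0498; from 0.0300 to 0.166 with 1 library left out).

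Stmn4 (also called RB3; ENSMUSG00000022044; chromosome 14, 66344296 to 66361680, plus strand) belongs to the same family and is a membrane-bound neuronal form. Its lowest, median and highest levels were 13, 20.2 and 26.2 CPM in DAAO libraries, against 12.7, 14.9 and 54.9 CPM in control libraries. Control 2 held 54.9 CPM, and the next highest control, control 1, held 24.5 CPM. The log2 fold change was -0.20 ± 0.35 (SE; edgeR adjusted p = 0.929), and without control 2 it was 0.30 (adjusted p = 0.609), so the direction turned with that library. The 5 libraries with the most Stmn4 were control 2, DAAO 3, DAAO 1, control 1 and DAAO 2. The same 5 were highest in the level of 12 spinal cord and oligodendrocyte markers, a comparison chosen after the values were seen. The summed level of those markers ranged from 194 to 1498 CPM in DAAO and from 38.8 to 3612 CPM in control, and 10 of the 12 were abundant enough to test. Mobp, a myelin gene of oligodendrocytes, reached 572 CPM in DAAO 2 and 2097 CPM in control 2. With the level of this list as a term the log2 fold change of Stmn4 was -0.32 (adjusted p = 0.606). The other stathmins did not pass either. Stmn1 stood at 488 ± 55.4 CPM in DAAO and 543 ± 185 CPM in control (-0.16, adjusted p = 0.868), and Stmn3 at 916 ± 153 CPM in DAAO and 1083 ± 298 CPM in control (-0.24, adjusted p = 0.699). All 4 stathmins thus had negative values, none past the threshold by edgeR or DESeq2 and none at an unadjusted p under 0.05 by edgeR.

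Ecel1 encodes a membrane protein of the M13 metalloprotease family, also called DINE, that neurons raise after nerve injury. The gene (ENSMUSG00000026247) lies on chromosome 1, 87147655 to 87156521. Its lowest, median and highest levels were 0.436, 4.22 and 7.49 CPM in DAAO libraries, against 0, 2.43 and 10.4 CPM in control libraries. Control 2 was again the highest library, and control 5 held 0 counts, which allows up to 3 counts or 0.152 CPM there, counting error only. The log2 fold change was 0.18 ± 0.88 (SE; edgeR adjusted p = 0.980), and its interval, from 0.306-fold to 4.22-fold, was the widest of the 8 genes in log2 terms. A difference of this size was not detectable for Ecel1 at this spread. Its direction turned without DAAO 1 (-0.11) and without control 4 or 5 (-0.04 and -0.10), and without control 2 it was 0.96. With the spinal cord and oligodendrocyte level as a term it was 0.01 (adjusted p = 0.998). Of the 5 libraries highest in Ecel1, 4 were among the 5 highest in that list, which was also compared after the values were seen. The motor neuron markers Chat and Mnx1 of the list were too scarce to test. They had 72 and 26 counts over the DAAO libraries together, against 5 and 0 over the control libraries. Mnx1 was found in DAAO 1 and DAAO 3 alone, Chat was highest in DAAO 2 at 1.59 CPM, and both were at 0 in DAAO 5 and DAAO 6. Of the 10 genes of the list that were tested, 8 had negative and 2 positive values, with a median log2 fold change of -0.18.

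A different member of the M13 family did fall. Mme, which encodes neprilysin, a peptide-degrading enzyme, stood at 28.5 ± 3.17 CPM in DAAO and 51.1 ± 13.3 CPM in control, and the groups did not overlap. Its log2 fold change was -0.84 ± 0.16 (SE; edgeR adjusted p = 0.0157). The call was lost without DAAO 2 or DAAO 6 (adjusted p = 0.0567 and 0.0582). Ece1 and Ece2, the endothelin-converting enzymes, did not pass (0.22 and -0.25, adjusted p = 0.592 and 0.856).

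Flrt3 encodes a leucine-rich repeat membrane protein that binds Unc5 receptors and latrophilins and that sensory neurons raise after axotomy. The gene (ENSMUSG00000051379) lies on chromosome 2, 140650914 to 140671469, inside Macrod2, which runs on the other strand. In DAAO libraries the lowest, median and highest levels were 22.9, 27.1 and 32.1 CPM, against 15.7, 24.4 and 33.9 CPM in control libraries. The DAAO values lay inside the control range. Flrt3 had a log2 fold change of 0.19 ± 0.17 (SE; edgeR adjusted p = 0.807), with an interval from 0.885-fold to 1.46-fold; that of Macrod2 was -0.22 (adjusted p = 0.688). Of 12 FLRT proteins and receptors none passed by edgeR or DESeq2. The smallest p were those of Flrt1 (0.60, adjusted p = 0.337) and Robo1, an axon guidance receptor (-0.40, adjusted p = 0.460), both with an unadjusted p under 0.05, and of Adgrl2, a latrophilin (-0.23, adjusted p = 0.639).

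**Figure D2:**
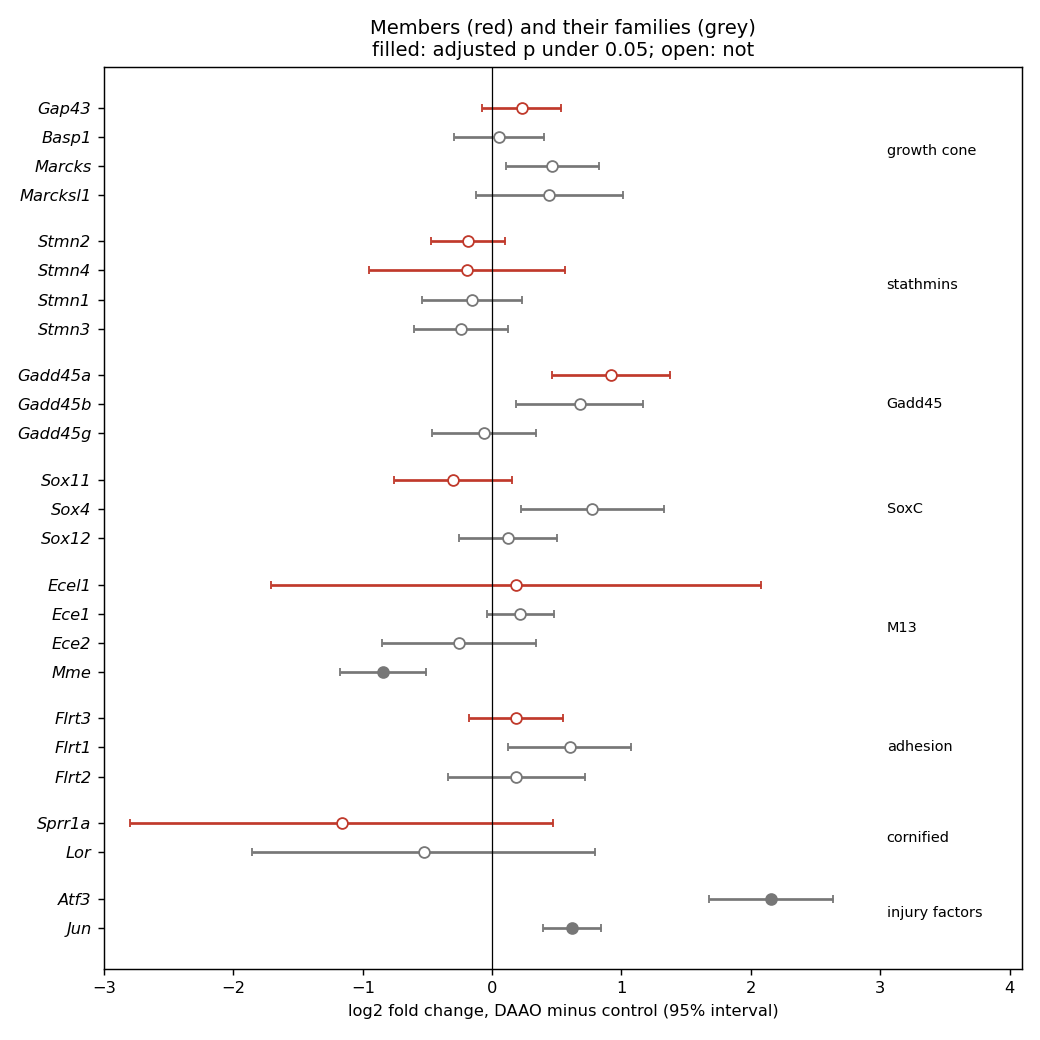
Log2 fold change, DAAO minus control, with 95% intervals (edgeR, n = 6 per group) for the members (red) and related genes (grey); filled points passed an adjusted p of 0.05. All 8 members are open; Gadd45a is the member whose interval lies clear of 0, and Atf3 at 2.16, Jun at 0.62 and Mme at -0.84 are filled.

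Transcription factors linked to nerve injury or axon growth were set beside the members. Of 18 such factors 2 rose and none fell, with a median log2 fold change of 0.29; DESeq2 called 3, Fos with them. Atf3 stood at 69.8 ± 19.1 CPM in DAAO and 15.7 ± 4.83 CPM in control, a 4.46-fold difference with an interval from 3.19-fold to 6.23-fold (edgeR adjusted p = 0.000235). Jun stood at 157 ± 7.84 CPM in DAAO and 103 ± 12.6 CPM in control, a 1.53-fold difference with an interval from 1.31-fold to 1.79-fold (adjusted p = 0.00789). In both genes the DAAO and control libraries did not overlap. Fos, a partner of Jun, stood at 24.9 ± 10.05 CPM in DAAO and 8.67 ± 4.8 CPM in control and did not pass (1.52, adjusted p = 0.0554); without control 2 it passed (1.86, adjusted p = 0.00383), and likewise without DAAO 5 (1.65, adjusted p = 0.0377). Whether the members differed from Atf3 in response was not tested. Atf3 was called in these same data, so its interval is no separate yardstick for the members. The upper bounds of the members' own intervals were 4.22-fold (Ecel1), 2.59-fold (Gadd45a), 1.48-fold (Stmn4) and 1.46-fold (Flrt3). Those of Gap43, Sprr1a, Sox11 and Stmn2 were 1.45-fold, 1.39-fold, 1.11-fold and 1.07-fold. Macrophage markers were read beside these factors. Of 9 such markers 8 had positive values, with a median log2 fold change of 0.72, and none passed by edgeR; 4 had an unadjusted p under 0.05, and DESeq2 called 1. Their summed level ranged from 125 to 496 CPM in DAAO and from 40.2 to 308 CPM in control. Cd68, a lysosomal protein of macrophages, stood at 29.0 ± 17.7 CPM in DAAO and 4.88 ± 3.71 CPM in control with no overlap (2.56, adjusted p = 0.0902). The complement genes C1qa and C1qb had log2 fold changes of 1.25 and 1.21 (adjusted p = 0.445 and 0.412). The part of these markers in the values of Atf3, Jun and Gadd45a was not tested.

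Of 30 other axon growth effectors none passed, with a median log2 fold change of 0.13; 21 had positive and 9 negative values. The smallest p was that of Marcks, the effector named above beside Gap43. Next came Map1b, a microtubule-associated protein of growing axons, at 3012 ± 398 CPM in DAAO and 4158 ± 1462 CPM in control (-0.47, adjusted p = 0.496), and Chl1, an adhesion molecule of the L1 family (0.30, adjusted p = 0.511). At an unadjusted p under 0.05 edgeR passed Marcks alone of this list, and DESeq2 called none. Without control 2 Map1b passed as lower (-0.63, adjusted p = 0.0298). Of 11 tested injury-induced peptides and secreted factors none passed, with a median of -0.03. The smallest p were those of Inhba, an activin subunit (1.01, adjusted p = 0.365), Csf1, the macrophage growth factor (0.40, adjusted p = 0.462), and Lif, a gp130 cytokine (0.70, adjusted p = 0.633). Of these Inhba and Csf1 had an unadjusted p under 0.05, and DESeq2 called none. The neuropeptide Gal, a classical marker of axotomised neurons, stood at 25 ± 9.85 CPM in DAAO and 22.9 ± 8.84 CPM in control (0.13, adjusted p = 0.937). It was named after its value was seen.

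Within groups no pair of members was shown to vary together, which with 12 libraries does not show that the members vary apart. The log2 levels of the 28 pairs of members, after each group mean was removed, were correlated over the 12 libraries. A positive coefficient was found in 18 pairs. None passed after Benjamini-Hochberg adjustment over the 28 pairs (permutation test within groups, 100000 resamples, smallest adjusted p = 0.314 for Pearson's r and 0.510 for Spearman's rho). The highest r were those of Ecel1 with Stmn4 (r = 0.657, permutation p = 0.0490; rho = 0.594, p = 0.0546; adjusted p = 0.366 and 0.510) and Gap43 with Stmn2 (r = 0.646, permutation p = 0.0298; rho = 0.629, p = 0.0380; adjusted p = 0.366 and 0.510). Without the 2 libraries farthest from the median of the first gene, r was 0.758 for Ecel1 with Stmn4 and 0.666 for Gap43 with Stmn2. The strongest negative pair was the stathmins Stmn2 with Stmn4 (r = -0.742, permutation p = 0.0112; rho = -0.483, p = 0.126; adjusted p = 0.314 and 0.681). Without DAAO 2 and control 2 that r was -0.480. The highest rho was that of Sox11 with Flrt3 (0.678, permutation p = 0.0251, adjusted p = 0.510; r = 0.588, p = 0.0523, adjusted p = 0.366; r = 0.654 without control 1 and DAAO 3). The map of libraries shows where the members peaked: control 1 was highest in Sprr1a and Sox11, control 2 in Stmn4 and Ecel1, and control 3 was lowest in 4 of the 8 genes.

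**Figure D3:**
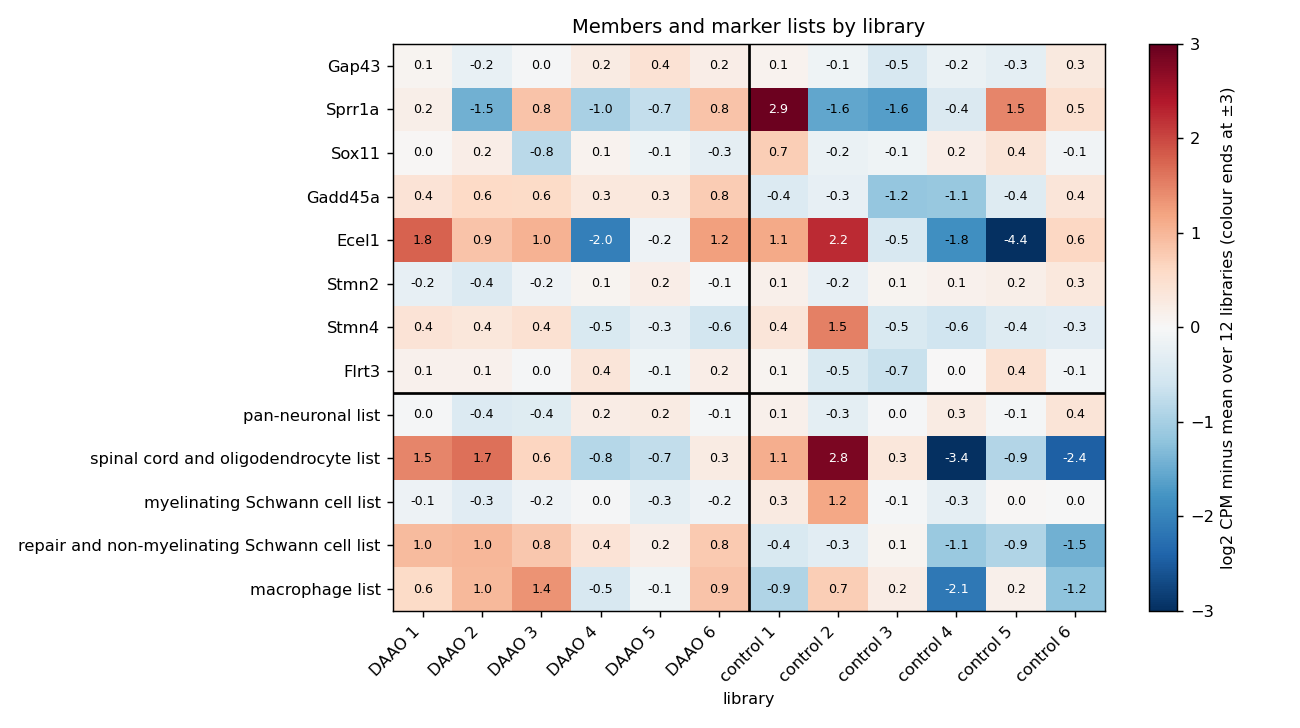
Log2 CPM minus the mean over the 12 libraries (colour and printed value) of the 8 genes and, below the line, the mean of the same quantity over 5 marker lists; DAAO libraries stand left of the line and control libraries right of it. Control 2 is high in Stmn4 (1.5), Ecel1 (2.2) and the spinal cord and oligodendrocyte list (2.8), while Sprr1a peaks in control 1 (2.9).

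The genes most like each member over the 12 libraries, with group means removed, were ranked among 13151 named genes by Pearson's r. They are a description with no test, since each is the highest of many. No library was left out for them, so an r can rest on 1 library. Stmn4 in control 2 and Sprr1a in control 1 lay far from the other controls. Gap43 was most like Dda1 (r = 0.954) and Armcx1 (r = 0.951). Stmn2 was most like Mapk11, a p38 kinase (r = 0.967), and Napg, a vesicle fusion adaptor (r = 0.954). Stmn4 was most like Car2, carbonic anhydrase 2 (r = 0.952), and Olfm2 (r = 0.949). Ecel1 was most like Hoxb6, a homeobox gene of trunk segments (r = 0.933), and Stum (r = 0.928). Gadd45a was most like Poldip2 (r = 0.875) and Smim3 (r = 0.872), and Sprr1a most like E2f4, a cell cycle transcription factor (r = 0.944), and Cep78 (r = 0.873). Sox11 was most like Prrt4 (r = 0.899) and Zfp788 (r = 0.897), and Flrt3 most like Ldah (r = 0.923) and Kantr (r = 0.904). Of these genes 1 was called between the groups, Car2, which fell by 1.04 on the log2 scale (edgeR adjusted p = 0.0467; from 0.0187 to 0.135 with 1 library left out).

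**Figure D4:**
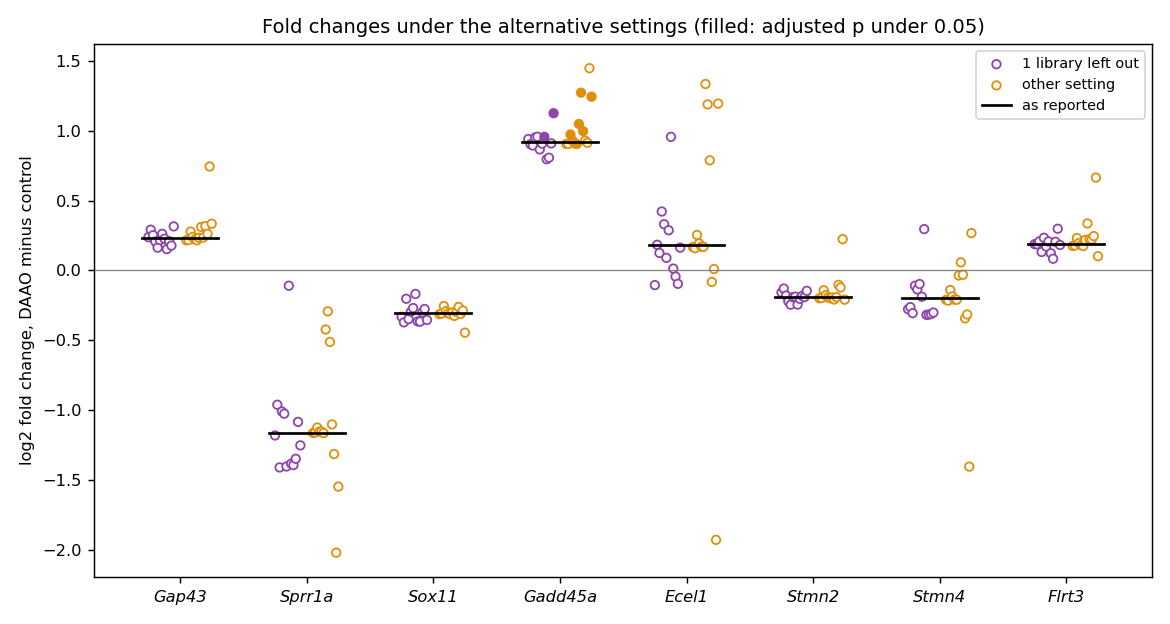
Log2 fold change, DAAO minus control, of each member as reported (black line), with 1 library left out (purple) and under the other settings (orange); filled points passed an adjusted p of 0.05. Gadd45a alone has filled points; Ecel1, Stmn2 and Stmn4 cross 0.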

How the data were processed

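Total RNA of dorsal root ganglia was sequenced as paired reads on an Illumina platform, per the labels' protocols. The deposited table holds whole-number read counts per gene, not normalised, for 12 libraries, with gene length in bases. Per the submitters' processing notes, the tools were FastQC, HISAT2 2.0.5 and DESeq2 1.20.0, and GRCm38 and mm10 the builds. No source used here names the counting program, its strand setting or the annotation release. Starts and ends of all 8 genes equalled those of GENCODE M21.

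Genes were kept with filterByExpr (minimum count 10, minimum total 15), scaled by TMM and fitted in R 4.3.3 with edgeR 4.0.16 (quasi-likelihood, robust, two-sided), 6 DAAO against 6 control libraries, with Benjamini-Hochberg adjustment over 17002 genes and a threshold of 0.05. CPM are TMM-scaled; centred log2 levels use a prior count of 2. Intervals are 95% intervals from the test's standard error. The test was checked on simulated counts drawn independently for each gene. These held no shared differences in tissue content between libraries, so the check does not cover such differences. Alternatives were other scaling factors and filters, DESeq2 1.42.0, limma-voom (limma 3.58.1), a replicate block, marker levels as terms and libraries left out. The members, the 27 lists (229 of 230 symbols in the table) and the alternatives were chosen with earlier results of these data known. Named were the members, their families, genes called, the 3 smallest p of each other list and the 2 genes most like each member. The 12 libraries all differed beyond sampling noise (smallest chi-square per degree of freedom 19.6 over 66 pairs). The labels do not say that libraries came from separate animals, so p-values measure the spread between these libraries. Lists overlap: Gfap and Olig1 stand in both the spinal cord and the repair Schwann cell list.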

Additional observations from a re-analysis of the deposited data

Results flagged for a closer look

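Sprr1a in control 1, at 9.70 CPM, lay far from the other control libraries, which ranged from 0.300 to 3.44 CPM. Stmn4 in control 2, at 54.9 CPM, lay far from the other controls, which ranged from 12.7 to 24.5 CPM. In each case the gap to the nearest control took a larger share of the group's range (0.667 for Sprr1a and 0.721 for Stmn4) than Dixon's 95% limit for 6 samples allows. Chance passes this limit in about 1 in 20 groups, and 2 of 16 member groups did. Control 2 was also highest in spinal cord, oligodendrocyte and myelinating Schwann cell markers, whose part in the Stmn4 value was not tested beyond the fit with the spinal cord level as a term.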

How the results depend on the processing

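Gap43, Sprr1a, Sox11 and Flrt3 kept their direction and stayed uncalled in all 25 alternatives, and no member was called lower in any. Gadd45a, the 1 member called in an alternative, passed with library totals alone (0.97, adjusted p = 0.0421), without a filter (0.93, 0.00888), with DESeq2 (0.90, 0.00667), limma-voom (1.05, 0.0246), limma-voom with sample weights (1.27, 0.00148), the replicate block (1.0, 0.0244) and without controls 2 and 6 (1.24, 0.00103); the count of members called higher was then 1. With 1 library left out that count ranged from 0 to 1 and the log2 fold change of Gadd45a from 0.80 to 1.13. Ecel1 turned negative with the pan-neuronal level (-0.082) and the repair Schwann cell level (-1.93) as terms, and ranged from -0.11 to 0.96 with 1 library left out. Stmn2 turned positive with the repair Schwann cell level (0.22). Stmn4 turned positive with sample weights (0.058) and without controls 2 and 6 (0.27), and ranged from -0.32 to 0.30 with 1 library left out. The cause was not tested. The number of genes called, 128, was 362 with DESeq2, 307 with sample weights, 648 without controls 2 and 6, and from 61 to 322 with 1 library left out. It was 1 with the repair Schwann cell level, in which the groups do not overlap. With the replicate number as a block 187 genes were called. Same-numbered libraries deviated together by correlations from -0.08 to 0.22, and 2 of 6 DAAO libraries correlated best with the control of their own number. The labels do not say what the numbers mark, and these correlations cannot settle whether the libraries were paired. Sprr1a and Ecel1 had the widest spread, with coefficients of variation from 63.7% to 133% within groups.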
